A study of Mus musculus with 4 samples.

Results

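The SOX transcription factors outside the oligodendrocyte lineage were taken as 10 genes, SOX1, SOX2, SOX3, SOX4, SOX5, SOX6, SOX9, SOX11, SOX12 and SOX21, and every probe that the array table names after one of them was included, 29 of the 45281 probes on the chip. Symbols are in capitals, as in that table, and all 10 are mouse gene symbols in RefSeq. The arrays were Illumina MouseWG-6 v2.0 chips, on which the signal of a probe is the mean brightness of the beads that carry it. They compared the anterior with the posterior lobes of the cerebellum of untreated Swiss mice at postnatal day 7 (PN7), each lobe being represented by 2 samples hybridized to an array apiece, to find genes that set these lobes apart. No genotype, transgene or sex is given in the labels, and neither they nor the methods say whether a sample is 1 animal or a pool, so that p-values measure the spread between these samples only, which may be technical.

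SOX proteins share the HMG box, a domain that binds the minor groove of DNA and bends it, and they are sorted into subgroups by its sequence. SOX1, SOX2 and SOX3 (subgroup B1) hold neural cells in the progenitor state, and SOX21 (B2) acts against them as a repressor. SOX4, SOX11 and SOX12 (subgroup C) act in newly formed neurons, SOX5 and SOX6 (subgroup D) have no activation domain of their own and modulate other SOX proteins, and SOX9 (subgroup E) is needed for glial fate. In the early postnatal cerebellum granule neuron progenitors still divide in the external granule layer while Bergmann glia and astrocytes mature, so that progenitors, young neurons and glia lie side by side in each dissected lobe.

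Of the 29 probes, 17 probes of 8 genes were brighter than background, meaning that under 0.05 of the negative control probes reached their brightness (the detection p-value) on at least 2 of the 4 arrays, and could be tested. None of them passed either threshold for a difference between the lobes. By limma with Benjamini-Hochberg adjustment over all 21726 tested probes, 0 of 17 passed an adjusted p of 0.05, where 0.106% of all tested probes did. The methods of the study required more than 1.2-fold and a p below 0.05 without adjustment, and this criterion was met by 0 of 17, against 8.29% of all tested probes. A figure caption of the study gives 1.5-fold instead, and with that fold 0 of 17 passed too, but the share of all tested probes was not counted there. A single SOX probe, 1 of SOX4, had an unadjusted p under 0.05, against 10.1% of all tested probes. The methods' t-test also gave 1, but a different one, SOX5 ILMN_2610223, whose posterior signal is at background. After adjustment that t-test called 0 of all 21726 tested probes, so that its 0 of the SOX probes says nothing about them. The log2 differences, posterior minus anterior, ran from -0.32 for SOX21 to 0.35 for SOX2, with 9 probes higher and 8 lower and a median of 0.057, against 0.0023 over all tested probes. Their adjusted p by limma lay between 0.45 and 0.99.

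**Figure D1:**
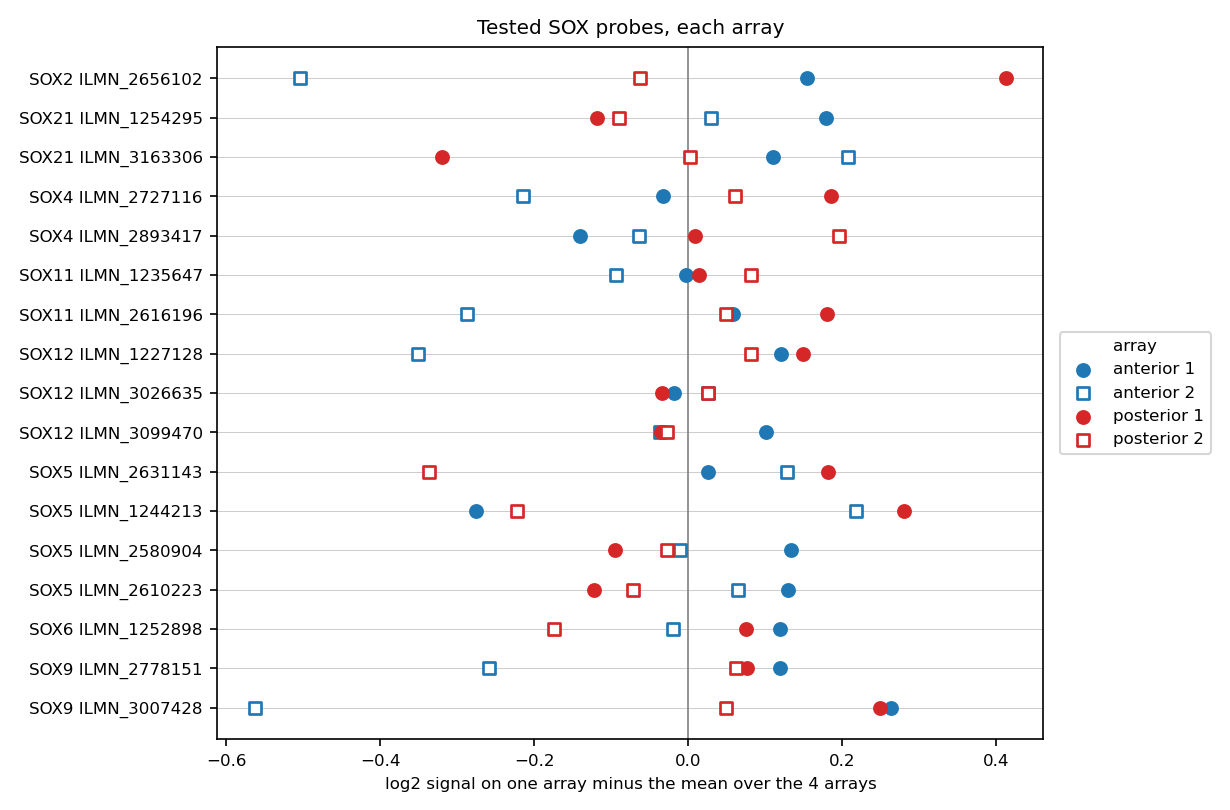
Log2 signal of the 17 tested SOX probes on each of the 4 arrays (circles replicate 1, open squares replicate 2, blue anterior, red posterior), as the distance from the mean of the probe over the 4 arrays. For SOX2, both SOX9 probes and 1 probe each of SOX11 and SOX12 the open blue square of anterior replicate 2 lies apart on the left, while both SOX4 probes have red points to the right of blue ones and both SOX21 probes the reverse.

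How far a difference can lie from 0 was read from its 95% interval, with the spread taken from limma's fit over the chip. The interval held 0 for 16 of the 17 probes. It lay wholly within 1.2-fold in either direction for 2 probes and within 1.5-fold for 12, against 12.2% and 82.9% of all tested probes. The narrowest interval reached 0.15 to each side on the log2 scale (a SOX11 probe) and the widest 0.66 (a SOX9 probe). A missed threshold therefore bounds the difference closely for some SOX probes and loosely for others, the widest intervals being those of SOX9 ILMN_3007428, SOX2 and SOX5 ILMN_1244213. With 2 arrays a lobe, the smallest p that an exact permutation test (two-sided) allows is 0.33.

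**Figure D2:**
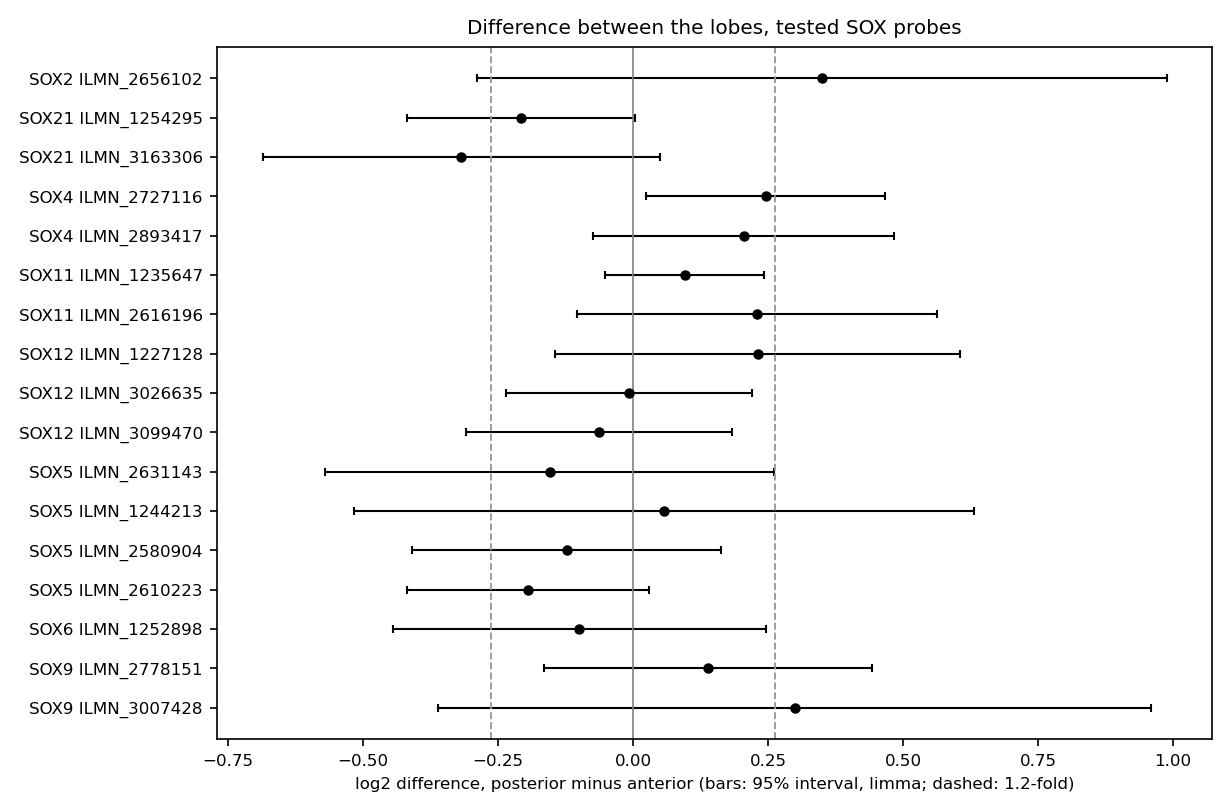
Log2 difference, posterior minus anterior, of the 17 tested SOX probes with its 95% interval by limma, and dashed lines at a 1.2-fold change. The interval of 1 SOX4 probe lies just to the right of 0, and the other 16 intervals hold 0.

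Of the progenitor factors of subgroup B1, SOX2 alone was above background, on 1 of its probes. SOX2 maintains neural stem cells and stays on in astroglia. Its probe ILMN_2656102 had a log2 signal of 8.18 and 7.52 on the anterior arrays (replicates 1 and 2) and 8.44 and 7.96 on the posterior arrays. The lobes overlapped, since posterior replicate 2 lay below anterior replicate 1. The log2 difference of 0.35 (standard error 0.26, adjusted p = 0.68 by limma) was the largest of the SOX probes, a 1.27-fold higher signal with an interval from 0.819 to 1.98 times the anterior level. It was no larger than the gap of 0.66 between the anterior samples themselves. Within replicate numbers the posterior array was higher by 0.26 in replicate 1 and by 0.44 in replicate 2.

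The second SOX2 probe, both probes of SOX3 and the single probe of SOX1 were not detected on any array. SOX1 had an intensity of 110.8 and 109.4 on the anterior and 112.9 and 106 on the posterior arrays. Between 0.084 and 0.18 of the negative controls were as bright or brighter. These probes give no fold, and nothing can be read from them about SOX1 and SOX3 in either lobe. In all, 12 probes of 8 genes were at background on every array, with intensities from 60.1 to 126.1, among them 4 of the 5 SOX6 probes.

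SOX21, which opposes the B1 factors and favours neuronal differentiation, had the most negative log2 difference of the members. The bright probe ILMN_1254295 had a log2 signal of 11.70 and 11.55 in the anterior and 11.41 and 11.43 in the posterior lobes. The probe ILMN_3163306 had 8.57 and 8.66 in the anterior and 8.14 and 8.46 in the posterior lobes. On both probes each posterior array lay below each anterior array. The log2 differences were -0.21 (standard error 0.086, adjusted p = 0.50 by limma) and -0.32 (standard error 0.15, adjusted p = 0.54 by limma), and neither passed the criterion of the study (unadjusted p = 0.053 and 0.079 by limma). Without anterior replicate 1 the log2 differences of ILMN_1254295 and ILMN_3163306 were -0.13 and -0.37, and without anterior replicate 2 they were -0.28 and -0.27. Both probes were lower in the posterior lobes within replicate 1, by -0.30 and -0.43, and within replicate 2, by -0.12 and -0.21. The remaining SOX21 probe (ILMN_2721489) was not detected on any array.

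Separation of the lobes is frequent on so few arrays. Of all tested probes 21.5% had both posterior arrays below both anterior arrays and 21.1% had them above, and among the SOX probes these numbers were 4 and 3 of 17. The 4 lower ones were those of SOX21 and a pair of SOX5 probes, and the 3 higher ones were both tested SOX4 probes and 1 of SOX11.

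RefSeq lists Sox21 also as an older name of Sox10, and the array table holds no sequence by which to check a symbol. SOX10, the oligodendrocyte lineage factor, has a probe under its own name (ILMN_1228105) and was lower, from 12.53 and 12.41 in the anterior to 12.06 and 11.86 in the posterior lobes. Its log2 difference of -0.51 (standard error 0.094, adjusted p = 0.19 by limma) passed the criterion of the study. Markers of oligodendrocytes were lower in the same samples. Of 11 genes 10 were tested, all 10 were lower and 9 passed the criterion of the study. The mean log2 signal of the list was 12.85 and 12.89 on the anterior and 12.10 and 12.00 on the posterior arrays, and of its defining genes only OLIG2 was not detected. In whole lobes fewer cells of a type and less RNA per cell cannot be told apart, and the part of these cells in the SOX21 values was not tested.

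SOX4 and SOX21 were the members for which every tested probe kept the lobes apart, in opposite directions, and the 250 bases before their annotated starts are given for that reason, 5′ to 3′, from RefSeq in the mouse build GRCm38.p6. Capitals mark the CCAAT box, the site of the promoter factor NF-Y, searched as CCAAT on both strands. The SOX4 stretch is chr13:28953700-28953949 and the SOX21 stretch chr14:118237031-118237280, both on the minus strand.
SOX4: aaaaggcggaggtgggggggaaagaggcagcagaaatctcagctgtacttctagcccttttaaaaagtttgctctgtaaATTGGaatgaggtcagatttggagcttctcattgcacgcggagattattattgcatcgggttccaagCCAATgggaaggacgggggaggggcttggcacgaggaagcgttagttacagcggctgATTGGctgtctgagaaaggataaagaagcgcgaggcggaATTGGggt
SOX21: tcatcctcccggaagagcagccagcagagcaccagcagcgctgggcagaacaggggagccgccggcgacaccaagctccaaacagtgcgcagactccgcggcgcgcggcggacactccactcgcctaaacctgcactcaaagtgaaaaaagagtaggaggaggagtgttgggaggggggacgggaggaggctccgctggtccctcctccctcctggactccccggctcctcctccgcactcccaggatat

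The SOX4 stretch holds CCAAT 4 times and the SOX21 stretch not at all, while 33.8% of the 32851 stretches of the same length hold it at least once. Neither holds TATAAA (12.4% of all stretches), the POU octamer ATGCAAAT (1.6%) or the SOX core letters ACAAAG (16.5%) and ACAATG (10.7%), each searched on both strands. Of the 8 members with an entry, SOX1, SOX2, SOX11 and SOX12 hold CCAAT 1 time each, and of the 6 starts of SOX6, 1 holds it 3 times and 1 holds it 1 time. SOX12 also holds the octamer, SOX2 and 5 starts of SOX6 hold ACAAAG, SOX5 and 2 starts of SOX6 hold ACAATG, and 1 start of SOX6 holds TATAAA. SOX3 and SOX9 have no entry. A match of letters is a description and not a bound site.

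SOX4 drives young neurons to switch on neuronal genes and was the SOX gene nearest to the criterion of the study. The bright probe ILMN_2727116 had a log2 signal of 12.50 and 12.32 in the anterior and 12.72 and 12.59 in the posterior lobes. The probe ILMN_2893417, close to background, had 7.24 and 7.32 in the anterior and 7.39 and 7.58 in the posterior lobes. On each probe the lobes did not overlap, the posterior arrays being the brighter ones. The log2 difference of ILMN_2727116 was 0.25 (standard error 0.090, adjusted p = 0.45 by limma), with an unadjusted p of 0.035 by limma and a fold of 1.19, short of the threshold of 1.2. After a shift of every array to a common 75th percentile it passed that criterion, as did 8.41% of all tested probes. ILMN_2893417 had 0.20 (standard error 0.11, adjusted p = 0.59 by limma). The interval of ILMN_2727116 reached from 1.02 to 1.38 times the anterior level.

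SOX11, which overlaps with SOX4 in young neurons, was closely bounded on 1 of its tested probes. On ILMN_1235647, its brightest probe, the log2 signal was 14.21 and 14.12 in the anterior and 14.22 and 14.29 in the posterior lobes. The posterior arrays lay above the anterior arrays, by 0.017 at the nearest. The log2 difference was 0.096 (standard error 0.060, adjusted p = 0.63 by limma), and its interval, from 0.965 to 1.18 times the anterior level, lay within 1.2-fold. On ILMN_2616196 the log2 signal was 10.92 and 10.57 in the anterior and 11.04 and 10.91 in the posterior lobes. Here the lobes overlapped, with anterior replicate 2 below the other arrays. The log2 difference was 0.23 (standard error 0.14, adjusted p = 0.61 by limma), with a wider interval, from 0.931 to 1.48 times the anterior level, and it was 0.40 without anterior replicate 1 and 0.057 without anterior replicate 2.

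SOX12, the least potent activator of its subgroup, was read differently by its probes. On ILMN_1227128 the log2 signal was 12.50 and 12.03 in the anterior and 12.53 and 12.46 in the posterior lobes, so that anterior replicate 2 alone was low. Its log2 difference was 0.23 (standard error 0.15, adjusted p = 0.65 by limma). On ILMN_3026635 the 4 values were 10.34 and 10.38 against 10.32 and 10.38, a log2 difference of -0.0072 with an interval from 0.850 to 1.17 times the anterior level. On ILMN_3099470, nearer to background, the log2 difference was -0.064. Both of these signs turned with a shift to a common 75th percentile, to 0.0018 and 0.0066. Of the 7 tested probes of subgroup C, 5 were higher and 2 lower in the posterior lobes, with a median of 0.20, and none passed the criterion.

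In the cerebral cortex SOX5 shapes deep layer projection neurons and SOX6 interneurons. SOX5 had 4 tested probes. The bright ILMN_2631143 had a log2 signal of 11.80 and 11.90 in the anterior and 11.95 and 11.43 in the posterior lobes, with posterior replicate 2 low. Its log2 difference was -0.15 (standard error 0.17, adjusted p = 0.79 by limma). It was -0.41 without posterior replicate 1 and turned to 0.11 without posterior replicate 2. On ILMN_1244213 the signal was 8.67 and 9.16 in the anterior and 9.22 and 8.72 in the posterior lobes. The replicates crossed, higher in the posterior lobes by 0.56 in replicate 1 and lower by -0.44 in replicate 2, and the log2 difference was 0.057. ILMN_2580904 gave -0.12 (adjusted p = 0.75 by limma).

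The SOX5 probe ILMN_2610223 was detected on both anterior arrays and on neither posterior array. Its posterior intensity was 119.1 and 125.4, against 152 and 122.1 in the anterior lobes. The posterior signal is thus background and only a bound can be given, the anterior mean being set against the mean over the posterior arrays of the higher of its own signal and the lowest signal among detected probes. By that measure the anterior mean was 1.04 times the bound, which is no minimum for the difference between the lobes. The 95% interval by limma reached from 0.748 to 1.02 times the anterior level and so included equal levels. The anterior arrays were close to background too, with detection p-values of 0.031 and 0.042. This probe passed the filter through the anterior arrays alone, so that its difference and its separated lobes, although counted above, are given as a description only. SOX6 had 1 tested probe (ILMN_1252898), with a log2 signal of 8.77 and 8.63 in the anterior and 8.72 and 8.47 in the posterior lobes. The lobes overlapped and the log2 difference was -0.099 (standard error 0.14, adjusted p = 0.84 by limma). Which transcript forms the SOX5 and SOX6 probes read was not analysed here.

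SOX9 sets glial fate and stays on in Bergmann glia and astrocytes. Its bright probe ILMN_2778151 had a log2 signal of 13.46 and 13.08 in the anterior and 13.41 and 13.40 in the posterior lobes. The probe ILMN_3007428 had 9.70 and 8.87 in the anterior and 9.69 and 9.49 in the posterior lobes. On both, 3 arrays lay close together and anterior replicate 2 lay below them. The log2 differences were 0.14 (standard error 0.12, adjusted p = 0.73 by limma) and 0.30 (standard error 0.27, adjusted p = 0.73 by limma). Within replicate 1 they were -0.043 and -0.014, and within replicate 2 they were 0.32 and 0.61.

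The array of anterior replicate 2 was the low one for SOX2, SOX9, and for 1 probe each of SOX11 and SOX12. Against anterior replicate 2 the mean of the posterior arrays was more than 1.2-fold higher on 6 of 17 SOX probes, where 12.2% of all tested probes were. Against anterior replicate 1 it was so on 1 of 17, where 5.45% were. The signal of anterior replicate 1 was above that of replicate 2 on 12 of 17 SOX probes, with a median gap of 0.14, against 46.8% and -0.016 over all tested probes. The anterior arrays also stood further apart than the posterior ones over the chip, with an SD of the log2 difference between replicates of 0.318 against 0.203.

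Left without anterior replicate 1, limma called 6 of 16 tested SOX probes at an adjusted p under 0.05, all higher in the posterior lobes, those of SOX2, SOX4, SOX11, SOX12 and both of SOX9, while 12% of all tested probes were called under the same setting. SOX2 then had a log2 difference of 0.67 (adjusted p = 0.037 by limma), and SOX9 0.33 and 0.72 (adjusted p = 0.013 and 0.0062 by limma). Left without anterior replicate 2, it called 0 of 16, against 1.04% of all. The SOX2 difference was then 0.022 (adjusted p = 0.98 by limma), and the SOX9 differences turned to -0.051 and -0.11. The spread then comes from the posterior samples, and the lone anterior sample is assumed to vary like them. Which of the anterior samples stands nearer to other anterior lobes was not tested.

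**Figure D3:**
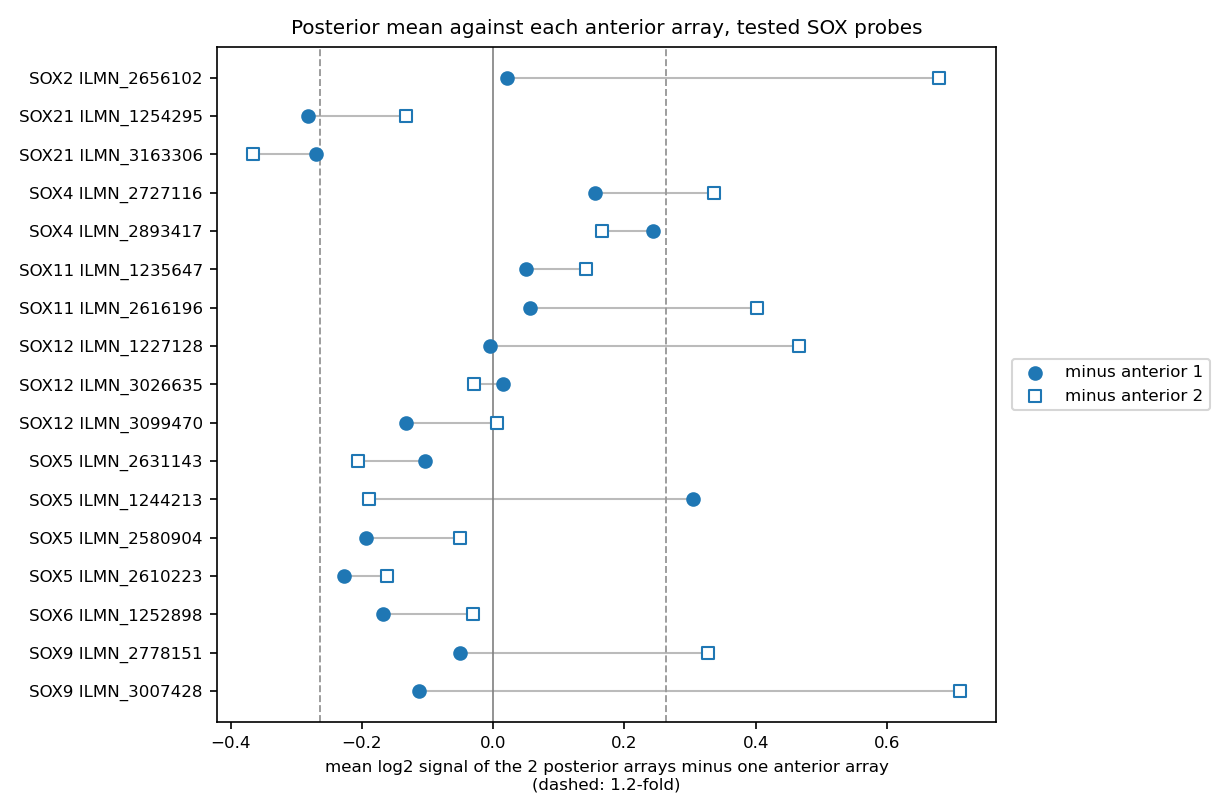
Mean log2 signal of the 2 posterior arrays minus that of each anterior array, for the 17 tested SOX probes (filled circle, against anterior replicate 1, and open square, against anterior replicate 2), with dashed lines at 1.2-fold. The circles and squares lie far apart for SOX2, SOX9 and 1 probe each of SOX5, SOX11 and SOX12, and 6 squares but 1 circle lie to the right of 1.2-fold.

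On the SOX2, SOX9, SOX11 and SOX12 probes with a low anterior replicate 2, the error of a signal within an array was smaller than the gap between the anterior arrays. Each tested SOX probe was read from 24 to 69 beads per array, and the standard error of its mean over the beads was between 2.09% and 8.40% of the signal. For SOX9 ILMN_3007428 it was at most 5.67%, while anterior replicates 1 and 2 differed by 0.83 on the log2 scale. For SOX4 ILMN_2893417, close to background, it reached 8.40%, and anterior replicate 1 minus 2 was only -0.077 on that scale. The bead error leaves out dissection, RNA and labelling.

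Markers of the cells in which these SOX genes are active were set beside them. Of 12 astroglial genes, which go with SOX2 and SOX9, 9 were tested and 0 passed the criterion of the study. Their median log2 difference was -0.057, and their mean log2 signal was 12.40 and 12.37 on the anterior and 12.32 on each of the posterior arrays. Of these 9 genes, 3 were higher and 6 lower in the posterior lobes. AQP4, SLC1A2 and PTPRZ1 were lower, at -0.25, -0.22 and -0.17, each with both posterior arrays below both anterior arrays. HOPX and GDF10 were higher, at 0.17 and 0.11. The anterior arrays also differed by gene, since HOPX was low on anterior replicate 2 (12.53 and 12.08, against 12.50 and 12.46 on the posterior arrays) and ALDH1L1 was high there (11.34 and 11.67, against 11.26 and 11.38). GLUL and S100B were not detected. Of 9 genes of granule neuron progenitors 6 were tested and 0 passed, with a median of 0.13 and a mean log2 signal of 12.40 and 12.21 on the anterior and 12.41 and 12.38 on the posterior arrays, lowest on anterior replicate 2. That low value came mainly from CCND2, at 11.67 and 10.76 on the anterior arrays, while MKI67 and TOP2A, genes of dividing cells, were higher on anterior replicate 2 than on replicate 1. ATOH1, GLI1 and MYCN were not detected. Of 7 genes of granule neurons 6 were tested, 2 higher and 4 lower, and 1, GRIN2C, passed. GRIN2C, at 0.32 (adjusted p = 0.47 by limma), was close to background, with intensities of 134.1 and 130.7 on the anterior and 178.4 and 160.2 on the posterior arrays. It was not detected on anterior replicate 1. The brighter SLC17A7 had -0.22 (adjusted p = 0.42 by limma), with both posterior arrays below both anterior arrays. The median of the list was -0.045 and turned to 0.016 without anterior replicate 1, 0.026 without posterior replicate 1 and 0.064 without posterior replicate 2. That of the granule neuron progenitors fell to 0.044 without anterior replicate 2 and to 0.080 without posterior replicate 1. Of 7 genes of meninges 6 were higher in the posterior lobes and 4 passed the criterion. Their mean log2 signal was 9.59 and 9.85 on the anterior against 10.52 and 10.71 on the posterior arrays. PTGDS, at 3.61, weighs heavily in that mean, while the median log2 difference of the list was 0.51 and COL1A2 had -0.040. TTR, the main secreted protein of choroid plexus, differed by replicate number, at 9.10 and 13.34 on the anterior and 8.37 and 11.85 on the posterior arrays. The 5 microglial genes, of which 0 passed, had a mean log2 signal of 8.98 and 8.68 on the anterior and 8.94 and 8.82 on the posterior arrays, lowest on anterior replicate 2. The part of any of these cells in the SOX values was not tested. Of the genes that define cerebellar granule cells and Purkinje cells, ZIC1, NEUROD1 and PCP2 were above background on all 4 arrays, while CALB1 and CAR8 of Purkinje cells were not detected.

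Genes tied to SOX function were counted in the same fit. Of 16 partners of the B1 factors and neural progenitor genes, 12 were tested and 0 passed the adjusted p by limma. Only 0.106% of all tested probes passed that threshold, against 8.29% for the criterion of the study by which the other lists are counted. This 0 is therefore not comparable with their counts. PAX6, a partner of SOX2 and a factor of granule cells, had a log2 difference of 0.040, the Notch target HES5 0.17 and NES, the intermediate filament nestin, -0.0060. The median of the list was 0.018. Of 12 neuronal differentiation genes linked to subgroup C, 10 were tested. STMN1, which destabilizes microtubules, passed the criterion at 0.33 (adjusted p = 0.40 by limma), and NCAM1, a neural adhesion molecule, passed it at -0.64 (adjusted p = 0.20 by limma). TUBB3, the neuronal tubulin, had 0.051 and TEAD2 0.18, and the median was 0.020. Of 12 gliogenic genes linked to SOX9, 10 were tested and 0 passed. Their median was -0.061, with ID3 at 0.31 and ID4 at -0.23 at the ends. In no list but that of oligodendrocytes, of meninges and of choroid plexus did a gene pass the adjusted p. In the list of choroid plexus this was OTX2 alone, at 3.82 (adjusted p = 0.015 by limma). The paper names Otx2 among genes with a compartmentalized pattern in the developing cerebellum. TTR and CLIC6, also tested in that list, had -1.11 and -0.89 (adjusted p = 0.84 and 0.39 by limma).

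**Figure D4:**
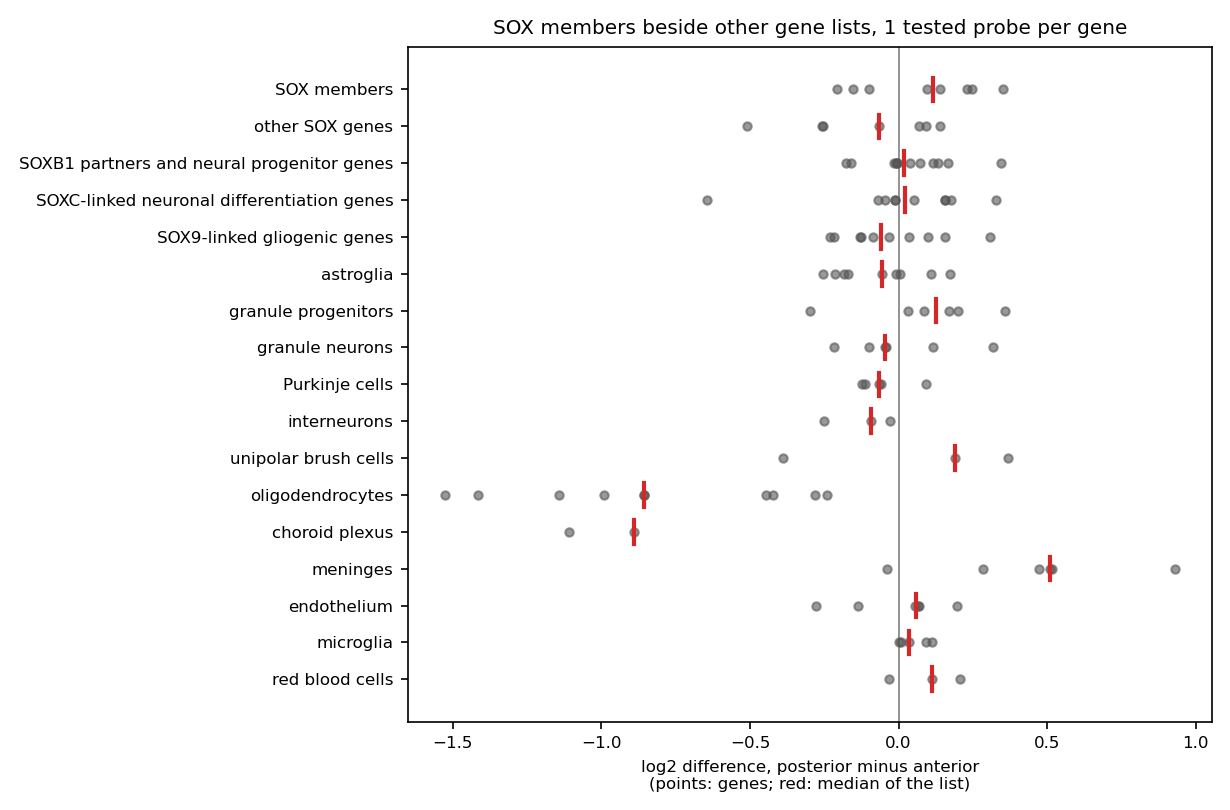
Log2 difference, posterior minus anterior, of each tested gene (points, 1 probe per gene) and the median of its list (red bars), for the SOX members and 16 other lists. OTX2 (choroid plexus list) and PTGDS (meninges list), at 3.82 and 3.61, are left off the axis but counted in the medians. The SOX members lie within -0.21 and 0.35, and the 10 oligodendrocyte genes all lie below 0.

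The remaining SOX genes comprise 9 genes with 15 probes, of which 9 probes of 7 genes were tested. SOX10 was the single one past the criterion. SOX7 and SOX18, factors of blood vessel endothelium, had log2 differences of -0.26 and -0.24 on the SOX7 probes and -0.25 on that of SOX18, with both posterior arrays below both anterior arrays on each, and adjusted p between 0.54 and 0.62 by limma. SOX17, of the same subgroup, had 0.067, and of 6 endothelial marker genes 0 passed the criterion, with a median of 0.060 (-0.046 at its lowest with 1 array left out). SOX8, the relative of SOX9 and SOX10, had -0.066 on ILMN_1259039 and 0.80 on ILMN_2784686, whose signal was 8.44 on posterior replicate 1 and 7.18 on posterior replicate 2 (adjusted p = 0.55 by limma). SOX13 had 0.094 and SOX14 0.14. SOX15 and SOX30 were not detected.

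The genes whose pattern over the 4 arrays lay nearest to the SOX probes with the largest difference in each direction were sought among the probes detected on all arrays, by the root mean square distance of centred log2 signals. For SOX2 these were HDAC4, LOC385877 and 9630013P03RIK, at distances of 0.022 to 0.034, with 77 of 19913 probes within 0.1. For SOX21 they were ARHGEF19, D330036A12RIK and MBOAT2, at 0.0077 to 0.013, with 503 of 19912 probes within 0.1. With 4 arrays many probes share a pattern, and the likeness is a description only.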

How the data were processed

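RNA of 2 anterior and 2 posterior lobe samples was hybridized to 1 array each. Deposited by the authors were, per probe, the average intensity over beads from GenomeStudio 1.9.0, with normalization off and no background subtraction, a detection score, which is a fraction (1 minus the detection p-value), and the SD and number of beads. Genome build and probe sequences are not given in the sources used here. Another 16 columns (minima, maxima, array numbers, empty SDs) were not used. Array columns were matched to samples by the sample numbers in the labels.

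The intensities were quantile normalized, floored at 1 and log2 transformed, and tested with limma 3.58.1 (intensity trend) in R 4.3.3, with Benjamini-Hochberg adjustment over the 21726 probes detected on at least 2 of 4 arrays. The methods of the study state the floor, the log base, the 1.2-fold change and the p under 0.05. Without background subtraction the differences of dim probes are compressed. Each probe is reported on its own, and lists use the tested probe with the highest mean signal per gene. The number of arrays limits the precision: between 21070 and 21574 probes were detected per array, and median intensities ran from 110.2 to 129.6.

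The text covers every probe of the 10 members, the other SOX genes, some genes of the lists and the 3 nearest patterns of 2 SOX probes. The list genes were chosen after their values were seen, for their difference, role or absence. They are not always those with the largest differences. The members and lists were chosen with earlier results of these data known. Alternatives were other normalizations (none, 75th percentile, cyclic loess, neqc with offset 16), no filter, detection on all 4 arrays or at p under 0.01, no intensity trend, the methods' t-test, a 1.5-fold threshold, each array left out, and a block for the replicate number. The fits were tested on simulated data. The result of 1 listed gene is not reported here.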

Additional observations from a re-analysis of the deposited data

How the results depend on the processing

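The number of SOX probes past the 1.2-fold criterion, 0 of 17, was 1 with a common 75th percentile (SOX4 ILMN_2727116, where 8.41% of all tested probes passed). It was 2 with the replicate block (SOX2 ILMN_2656102 and SOX21 ILMN_3163306, where 13% of all tested probes passed), and 0 with the other normalizations, filters and tests. Leaving out an array gave 0 to 7 probes. There were 7 without anterior replicate 1, where 22.1% of all tested probes passed, 1 each without anterior replicate 2 and without posterior replicate 1, and 0 without posterior replicate 2. The number past the adjusted p was 0 under every setting but the one without anterior replicate 1, so that leaving out an array gave 0 to 6. With the replicate block the lowest adjusted p of a SOX probe was 0.14 by limma. An unadjusted p under 0.05 was then reached by 6 SOX probes, and the share of all tested probes that reached it was not counted. The replicate differences of the lobes correlated with r = 0.46 over the tested probes and 0.081 over the 17 SOX probes. Whether samples of 1 number share anything was not tested. The labels do not say that a number marks a shared animal or day, and there are only 2 numbers, so the block was kept as an alternative.

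The SOX4 and SOX21 probes kept their sign under every alternative that tested them. So did the tested probes of SOX2 and SOX11, and SOX5 ILMN_2580904 and ILMN_2610223. On the SOX4 and SOX21 probes the lobes did not overlap, so that leaving out 1 array could hardly turn the sign, and the kept sign is no separate support. With a common 75th percentile, which moved the median of all tested probes to 0.032, SOX12 ILMN_3026635 turned to 0.0018 and ILMN_3099470 to 0.0066. Leaving out an array turned the sign of 8 probes, with log2 differences from -0.0044 to 0.46 for SOX12 ILMN_1227128, from -0.037 to 0.022 for ILMN_3026635, from -0.13 to 0.0055 for ILMN_3099470, from -0.051 to 0.33 for SOX9 ILMN_2778151, from -0.11 to 0.72 for ILMN_3007428, from -0.41 to 0.11 for SOX5 ILMN_2631143, from -0.20 to 0.31 for ILMN_1244213 and from -0.23 to 0.026 for SOX6 ILMN_1252898. By construction the spread then comes mostly from the remaining pair of arrays. Of 224 list medians over the alternatives 192 moved by less than the spread between replicates, and without 1 array or with another filter the small medians of the lists linked to B1 and C factors turned (to between -0.043 and 0.078, and -0.033 and 0.094). Signals near background, as for SOX4 ILMN_2893417 and SOX5 ILMN_2610223, limit the differences that can be seen.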
